A study of Mus musculus with 8 samples.

Results

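The expression of 10 immediate early transcription factor genes was followed in single nuclei of the mouse primary visual cortex (V1). The members were listed by symbol: Fos, Fosb, Fosl2 and Junb of the AP-1 family, Egr1 and Egr3 of the EGR family, Nr4a1, Nr4a2 and Nr4a3 of the NR4A family, and Npas4. All 10 were found among the 26711 features of the count matrix, which held 102330 nuclei in 20 cell types named by the authors. Nuclei came from V1 of mice at postnatal day 21 and were sorted as DRAQ5-positive and GFP-negative before droplet 3′ RNA sequencing. Every mouse, controls included, carried floxed alleles of Nr3c1, the gene of the glucocorticoid receptor (GR fl/fl). At birth, V1 was injected with an AAV2/5 vector in which the GfaABC1D promoter drove Cre and, after a self-cleaving peptide, membrane-targeted EGFP-CAAX, with 4x6T and WPRE elements (GR-KO), or with the same vector holding the inactive ΔCre (GR-Con). GfaABC1D is a promoter chosen for activity in astrocytes, so the deletion was directed at astrocytes and not at the neurons in which the members are best known. Mice were normally reared (NR) or kept in chronic darkness (DR), and all were collected under red light in the hours after the light phase would end. The 2 rearings and 2 vectors gave 4 groups, written NR or DR followed by GR-Con or GR-KO, each with 1 male and 1 female library, named here by group and sex.

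Immediate early genes are transcribed within minutes of synaptic activity or growth factor signals, without new protein synthesis, through factors already in place such as CREB, SRF and MEF2. Their products are themselves transcription factors: FOS and JUN proteins pair to form AP-1, EGR proteins are zinc finger activators, NR4A proteins are orphan nuclear receptors that act without a known hormone, and NPAS4 is a bHLH-PAS factor whose gene responds selectively to calcium entry in neurons. In visual cortex their RNA is widely used as a readout of recent light-driven activity, and each then controls later genes for synapses and secreted factors.

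The promoters of the members are shown where the reference gave a window free of annotated exons as background on the genes, and no value below bears on the matches. The 250 bases before the RefSeq start of each gene (GRCm38.p6) were searched for TGACG and its reverse complement CGTCA, the core that CREB recognises. Capitals mark each match, and sequences run 5′ to 3′ on the strand of the gene.
Fos: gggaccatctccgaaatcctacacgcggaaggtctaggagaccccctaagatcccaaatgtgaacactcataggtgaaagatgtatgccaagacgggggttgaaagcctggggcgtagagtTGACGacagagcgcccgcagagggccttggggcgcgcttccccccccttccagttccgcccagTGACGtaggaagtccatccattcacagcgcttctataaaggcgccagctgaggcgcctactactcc
Junb: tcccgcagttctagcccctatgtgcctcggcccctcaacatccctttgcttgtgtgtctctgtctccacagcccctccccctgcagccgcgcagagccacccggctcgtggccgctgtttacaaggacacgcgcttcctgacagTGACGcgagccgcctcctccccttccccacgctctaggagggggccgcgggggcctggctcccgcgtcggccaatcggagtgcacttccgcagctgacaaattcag
Nr4a1: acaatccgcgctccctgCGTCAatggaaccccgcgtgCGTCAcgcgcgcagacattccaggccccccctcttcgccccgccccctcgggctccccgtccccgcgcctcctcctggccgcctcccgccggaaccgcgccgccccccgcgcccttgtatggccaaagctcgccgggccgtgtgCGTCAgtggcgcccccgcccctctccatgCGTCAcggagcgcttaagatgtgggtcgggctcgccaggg
Nr4a2: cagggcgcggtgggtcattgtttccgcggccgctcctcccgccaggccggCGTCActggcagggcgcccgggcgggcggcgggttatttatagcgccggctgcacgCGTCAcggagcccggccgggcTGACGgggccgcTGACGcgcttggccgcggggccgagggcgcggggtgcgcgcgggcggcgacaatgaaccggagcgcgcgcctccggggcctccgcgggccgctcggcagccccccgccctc

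The Fos window was chr12:85473640-85473889 on the plus strand, next to the start of the gene, with cores beginning 129 and 66 bases before it. The Junb window was chr8:84978749-84978998 on the minus strand and held 1 core, 106 bases before the start. The Nr4a1 window was chr15:101266596-101266845 on the plus strand and held 4 cores; it lies in an intron of the longer annotated transcripts. The Nr4a2 window was chr2:57124004-57124253 on the minus strand and held 4 cores. Windows were found for 8 members, and 7 of the 8 held at least 1 core, with 4 cores in Nr4a3, 2 in Npas4, 1 in Fosb and 0 in Fosl2. Of all 32851 windows of the same length in the mouse table, 17.8% held at least 1 core, 3.90% at least 2 and 0.137% at least 4. A match is a run of letters and not a shown binding site.

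The libraries held 9517 to 15161 nuclei and 168632129 to 288774016 unique molecular identifiers (UMIs, 1 per captured RNA molecule). Levels are given as UMIs of a gene per 1000000 UMIs (CPM), summed over the nuclei of a cell type in a library. In such sums, fewer expressing cells and less RNA per cell cannot be told apart. Of 60 marker genes set for the cell types, 59 were found and 49 were highest in their own type. L6IT and L5PT were not marked out by this check, with 0 of 3 markers highest in L6IT and 0 of the 2 found highest in L5PT, so both are labels of the authors only. L4 and L5IT were marked out weakly, with only Scnn1a highest in L4 and only Deptor highest in L5IT. Rorb was 1553 CPM in L4 and 1831 CPM in astrocytes, and Fezf2 was 22.8 CPM in L5IT and 72.8 CPM in L5NP. Nr3c1 itself was counted in astrocytes at 207 to 263 CPM in GR-Con and 268 to 284 CPM in GR-KO. The 3′ counts need not see the loss of floxed exons, so this does not check the labels. Although the sort kept GFP-negative nuclei, EGFP UMIs were counted in astrocytes of every library, at 8.63 to 23.4 CPM. Cre UMIs did follow the labels, with 0 in each of the 4 GR-Con libraries and 190 to 1054 in the GR-KO libraries. Of these, 109 to 840 were in excitatory neurons (0.745 to 3.70 CPM) and 43 to 86 in astrocytes (4.14 to 10.4 CPM). They check the label of a library and not the cell type of the deletion. The 8 libraries shared 1220 of 101098 distinct cell barcodes.

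One library stood apart in the members before any comparison. In the NR GR-KO male, the 10 genes together made up 285 CPM of all nuclei, against 83.3 to 120 CPM in the other 7 libraries. In excitatory neurons, Fos was 17.8 CPM in this library and 0.945 to 2.46 CPM in the other 7. Junb, the AP-1 partner induced alongside Fos, was 87.9 CPM against 7.93 to 20.6 CPM, and Npas4 was 43.1 CPM against 6.50 to 13.7 CPM. Egr1 was 50.9 CPM against 8.91 to 19.9 CPM. The gap was small for Nr4a1 (78.2 against 41.6 to 57.1 CPM), for Egr3 (15.8 against 4.71 to 13.8 CPM) and for Nr4a3 (17.9 against 6.82 to 16.1 CPM). For Fosl2, a slower AP-1 member, the library was level with the highest of the others (4.26 against 2.38 to 4.20 CPM).

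**Figure D1:**
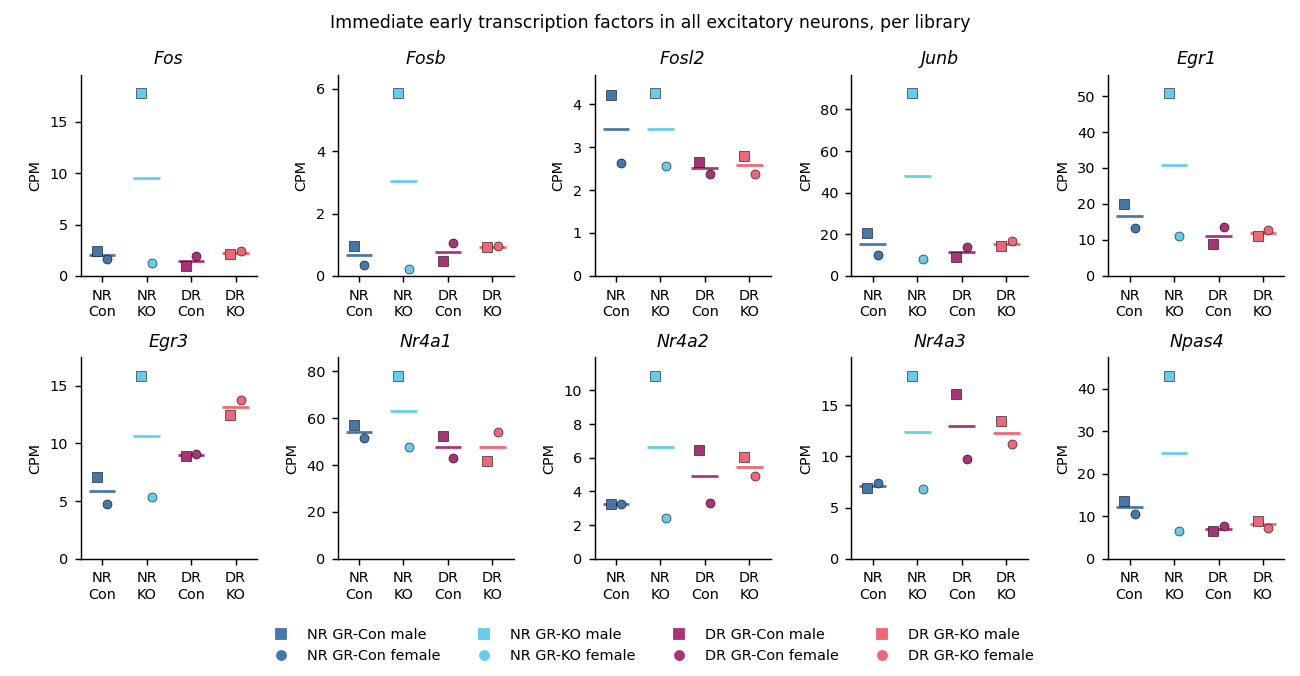
CPM of each of the 10 genes in all excitatory neurons of each library (y axis, linear, 1 panel per gene), with squares for males, circles for females and a line for each group mean of 2. The NR GR-KO male lies far above the other 7 libraries for Fos, Fosb, Junb, Egr1 and Npas4, and close to them for Fosl2.

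The same library was the highest of 8 in 112 of the 150 pairs of a member and a cell type, including Fos, Junb and Egr1 in 15 of 15 types. Counts in glia can hold neuronal RNA: in astrocytes of this library Npas4, a gene known from neurons, was 4.27 CPM against 0.405 to 1.096 CPM in the other 7, and 8 neuronal marker genes summed to 734 CPM against 395 to 739 CPM, so the glial value is not read as expression there. Of 10128 genes with a mean of at least 5 CPM in excitatory neurons over the 8 libraries, a limit that leaves out low genes such as Fos, 6 exceeded every other library by more than 2-fold there, namely Arc, Junb, Npas4, Dusp6, Btg2 and Egr1, all of them activity-induced genes. Several other quantities moved with it. Cre reached 3.70 CPM in its excitatory neurons, against 0.745 to 1.21 CPM in the other GR-KO libraries, and a list of heat shock genes summed to 96.2 CPM against 58.0 to 74.0 CPM. Glial RNA counted in excitatory nuclei, from 8 marker genes of which none was at 0, summed to 156 CPM against 84.8 to 140 CPM. Their part in the result was not tested. The library is 1 of 2 in its group, so counts of calls that use it are given with and without it. It was picked by the members' own values, so leaving it out shifts their fold changes by itself. Calls and p-values without it are not support of their own.

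The elevation in that library came from many nuclei. After each excitatory nucleus was thinned to 5000 UMIs, leaving out 0 to 81 shallower nuclei per library, 16.6% of nuclei of the NR GR-KO male had UMIs of 3 or more of the 10 genes. The share was 0.874% to 2.45% in the other libraries. In L4, the layer that receives thalamic input, it was 25.1% against 0.390% to 2.64%. For Npas4 alone, 15.9% of thinned excitatory nuclei had a UMI, against 3.11% to 5.98%. Without thinning the shares were 39.0% against 8.44% to 18.6%, at median depths of 25216 UMIs and 16939 to 34310 UMIs. Oligodendrocytes, which should lack Npas4, had it in 0.927% of thinned nuclei of that library (median depth 11134 UMIs) and in at most 0.510% elsewhere (7040 to 15571 UMIs). The excitatory shares were thus above this background in each library.

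Each member had its own distribution over the 15 cell types with at least 10 nuclei in every library. Nr4a2, an NR4A receptor known from deep cortical layers and dopamine neurons, was concentrated in L6b at 81.4 ± 11.01 CPM (SD, n = 8), with 68.2 CPM in its lowest library. The next type, L6IT, was at 9.32 ± 3.17 CPM and below L6b in 8 of 8 libraries. Nr4a3 was highest in L5NP (48.9 ± 10.2 CPM), above L6IT (32.1 ± 6.26 CPM) in 8 of 8 libraries. L6IT and L6b (23.9 ± 14.6 CPM) overlapped in their ranges. Nr4a1, also called Nur77, was high across excitatory neurons and peaked in L5PT at 78.0 ± 14.1 CPM, above L4 in 7 of 8 libraries. L4 and L5IT did not differ beyond their spread for Nr4a1 (60.4 ± 15.3 and 58.5 ± 10.6 CPM).

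Among these 15 types Egr1, Junb and Npas4 were highest in L4 over the 8 libraries. Without the NR GR-KO male, Egr1 was 17.5 ± 4.58 CPM in L4 and 15.2 ± 4.25 CPM in L6CT (SD, n = 7), Junb was 16.3 ± 6.67 CPM in L4 and 14.95 ± 3.71 CPM in L6IT, and Npas4 was 10.0 ± 2.25 CPM in L6IT and 9.80 ± 3.37 CPM in L4. None of these neighbours was apart by more than its spread. Egr3 was highest in L5IT (12.2 ± 5.72 CPM, n = 8), above L2/3 in 5 of 8 libraries. Fos without the high library was highest in astrocytes (4.83 ± 2.24 CPM, n = 7), followed by L4 (2.59 ± 1.06 CPM). Fosl2 and Fosb were low throughout, with top types L6IT (5.77 ± 1.81 CPM) and L4 (1.86 ± 2.75 CPM) over the 8 libraries. Without the NR GR-KO male Fosb was 0.899 CPM in L4 and its top type was L6IT at 1.08 ± 0.738 CPM. Among glia, Nr4a1 in OPC, the precursors of oligodendrocytes, was 19.6 to 28.1 CPM, against 4.92 to 10.7 CPM in astrocytes and 2.89 to 7.98 CPM in oligodendrocytes. Junb in microglia was 28.4 to 35.2 CPM in the 5 libraries with at least 573 microglia. The other 3 libraries, which were the NR GR-Con male, the NR GR-KO male and the DR GR-Con female, held 2 to 4 microglia.

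**Figure D2:**
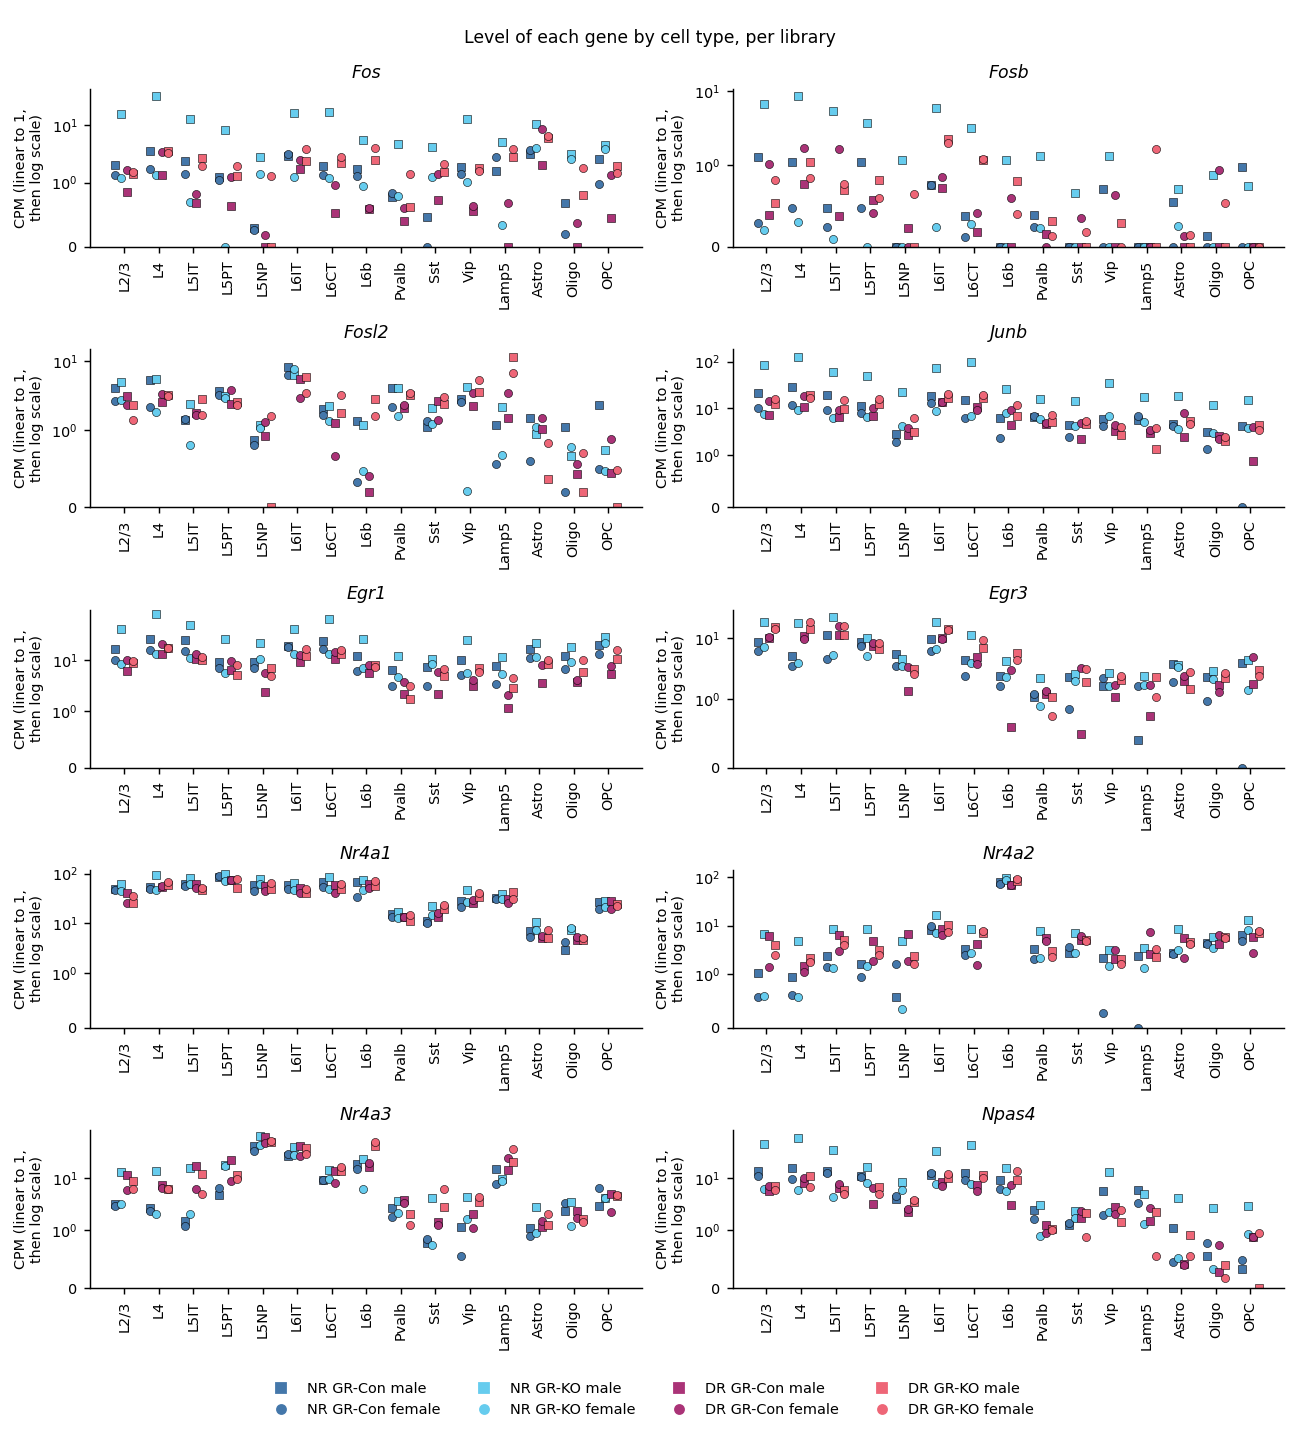
CPM of each gene in the 15 cell types with at least 10 nuclei in every library (1 panel per gene, 1 point per library, axis linear up to 1 CPM and logarithmic above). Nr4a2 stands out in L6b and Nr4a3 in L5NP, while Fos in astrocytes lies in the range of the neurons.

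The effect of dark rearing was read first in GR-Con, where the library that stood apart in the members took no part. Over all genes the DR GR-Con female stood apart in astrocytes, with 25 of 11107 genes over 2-fold above and 63 over 2-fold below all other libraries. The members were called in both directions. In DR mice Nr4a3 was higher in L2/3, L4, L5IT and L5PT, Nr4a2 in L2/3 and Egr3 in L4, while Npas4 was lower in L2/3, L5IT and L5PT and Egr1 in L6IT. The likelihood ratio test of edgeR, fitted across all genes of a cell type with Benjamini-Hochberg adjustment and called at an adjusted p under 0.05, called 6 of 111 pairs of a member and a type higher in DR and 4 lower. Among all genes and types tested, 1.41% were called higher and 0.840% lower. The stricter quasi-likelihood F-test of edgeR called 1 higher and 2 lower (3 of 111 pairs, against 0.495% of all genes and types in either direction). Single libraries moved these counts. Without the NR GR-Con male 5 pairs were higher and 0 lower (0.530% and 0.220% of all), and without the NR GR-Con female 3 and 5 (0.530% and 0.370%). Without the DR GR-Con female 12 were higher and 12 lower (2.04% and 1.24%), and without the DR GR-Con male 8 and 12 (3.02% and 2.18%). Each such fit leaves a lone library that is assumed to vary as the other pair does. Nr4a3 in L4 and L5IT and Egr3 in L4 were called in each of the 4 fits. The p-values rest on 2 mice per group, and on simulated counts 22.1% of the likelihood ratio calls in L2/3 of GR-Con were false. Where groups are said below not to overlap, the share of all genes without overlap was not counted.

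Nr4a3 in L4 was 2.62 and 2.38 CPM in the NR GR-Con male and female and 7.41 and 6.33 CPM in the DR GR-Con male and female. Both DR libraries lay above both NR libraries, with a log2 fold change of 1.47 (SE 0.21; edgeR adjusted p = 2.03e-09, quasi-likelihood 0.0877). In L5IT, Nr4a3 went from 1.53 and 1.19 CPM to 16.9 and 6.15 CPM. The increase was 3.08 on the log2 scale (SE 0.54; edgeR adjusted p = 1.15e-06) and was called by the quasi-likelihood test as well (adjusted p = 0.0379). In L2/3 the values were 3.25 and 2.90 CPM in NR and 11.5 and 5.89 CPM in DR, a log2 fold change of 1.45 (SE 0.36; edgeR adjusted p = 0.00137, quasi-likelihood 0.0997). The male DR library was the higher of the pair in each of these 3 types.

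Egr3, whose product drives its own late wave of targets in neurons, rose in L4 from 5.08 and 3.45 CPM to 10.8 and 9.67 CPM. Its log2 fold change was 1.27 (SE 0.23; edgeR adjusted p = 1.42e-05, quasi-likelihood 0.12). Nr4a2 in L2/3 was 1.07 and 0.569 CPM in NR and 6.12 and 1.39 CPM in DR, and it was called by the likelihood ratio test, as was Nr4a3 in L5PT (4.76 and 6.49 CPM in NR, 21.9 and 8.82 CPM in DR). In the last of these the DR female exceeded the NR female by little. Without the DR GR-Con male neither of these 2 was called, at 0.68 and 0.61 on the log2 scale (edgeR adjusted p = 0.31 and 0.23), and neither was called without either NR library. Nr4a3 in L2/3 was not called without the NR GR-Con male (edgeR adjusted p = 0.0748) or female (0.11).

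Npas4 fell in 3 excitatory types. In L2/3 it was 13.8 and 11.3 CPM in NR GR-Con and 5.79 and 7.11 CPM in DR GR-Con, with no overlap. The log2 fold change was -1.01 (SE 0.19; edgeR adjusted p = 8.09e-06, quasi-likelihood 0.0347). In L5IT it was 14.0 and 12.8 CPM in NR and 6.46 and 7.86 CPM in DR, a log2 fold change of -0.90 (SE 0.21; edgeR adjusted p = 0.000598, quasi-likelihood 0.0339). In L5PT the change was -1.16 (SE 0.30; edgeR adjusted p = 0.00648, quasi-likelihood 0.13), from 11.4 and 10.9 CPM to 3.28 and 6.69 CPM. Egr1 in L6IT fell from 18.95 and 18.0 CPM to 9.19 and 12.3 CPM, by 0.80 on the log2 scale (SE 0.20; edgeR adjusted p = 0.00729, quasi-likelihood 0.28). Egr1 in astrocytes was 16.2 and 10.8 CPM in NR and 3.46 and 7.97 CPM in DR, and was not among the calls. Without the NR GR-Con male the 4 lower pairs were at -0.88 (Npas4 in L2/3), -0.85 (L5IT), -1.14 (L5PT) and -0.78 (Egr1 in L6IT), with edgeR adjusted p from 0.0568 to 0.74. The calls in L5PT and of Egr1 were also lost without the NR GR-Con female. In the likelihood ratio fit of all 4 GR-Con libraries without a term for sex, Fos, Fosb, Fosl2, Junb and Nr4a1 had no call in any type.

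**Figure D3:**
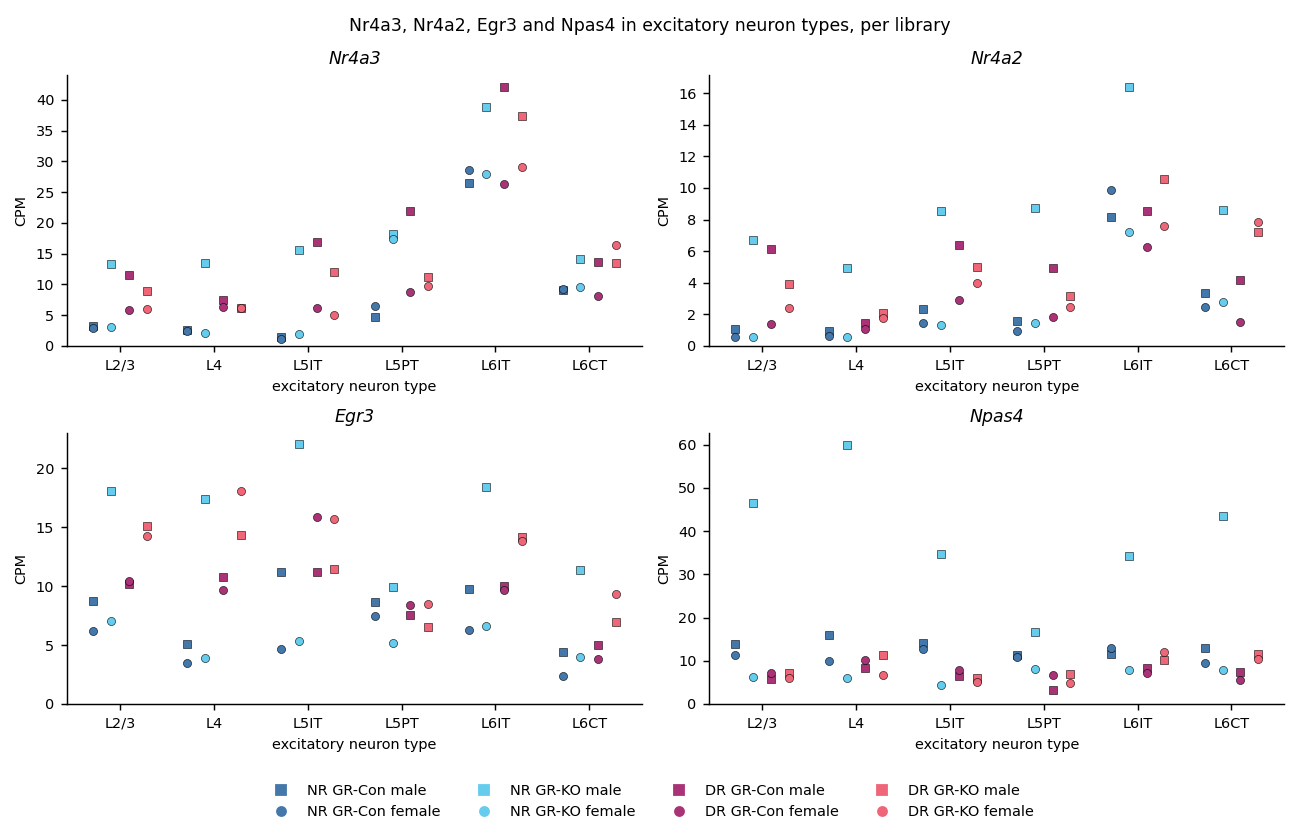
CPM of Nr4a3, Nr4a2, Egr3 and Npas4 by library in 6 excitatory types (points coloured by group, squares male, circles female, y axis linear from 0). In L4, Nr4a3 lies at 2.07 to 2.62 CPM in 3 of the NR libraries, at 6.17 to 7.41 CPM in the 4 DR libraries and at 13.5 CPM in the NR GR-KO male.

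Over both genotypes, with the genotype as a term and all 8 libraries, 2 of 126 pairs were called higher in DR and 10 lower, against 2.62% and 2.63% of all genes and types. As shares of the member pairs these were 1.59% higher and 7.94% lower, so only the lower calls exceeded the share of all genes. The quasi-likelihood test called 2 in each direction. This was 3.17% of member pairs, near the 3.30% of all in either direction. Without the NR GR-KO female, 2 of 135 pairs were higher and 35 lower, beside 3600 and 4066 of all 224764. The balance turned without the NR GR-KO male, with 11 of 128 pairs higher and 3 lower (2.90% and 2.48% of all). The quasi-likelihood test then called 7 higher and 0 lower (6735 of all 224214 in either direction). Of the 10 pairs lower with all 8 libraries, 5 were Egr1, 3 Npas4, 1 Junb and 1 Nr4a1.

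Of the 11 pairs called higher without the library, 3 were Egr3, 3 Nr4a2, 4 Nr4a3 and 1 Fosl2. The library left out was picked for its high values of the members, which by itself moves DR over NR upward. The p-values without it are therefore no support of their own. Nr4a3 in L4 was 2.07 CPM in the NR GR-KO female, and 6.17 and 6.25 CPM in the DR GR-KO libraries. Its log2 fold change over the 7 libraries was 1.54 (SE 0.15; edgeR adjusted p = 3.58e-22, quasi-likelihood 0.00467), and with all 8 it was 0.60 (adjusted p = 0.55 by edgeR). Egr3 in L4 was 3.93 CPM in the NR GR-KO female and 14.3 and 18.1 CPM in the DR GR-KO libraries. The 7 libraries gave 1.60 (SE 0.23; edgeR adjusted p = 3.13e-09, quasi-likelihood 0.0139) and the 8 gave 0.97 (edgeR adjusted p = 0.0965). Nr4a2 in L2/3 was 0.586 CPM in the NR GR-KO female and 3.91 and 2.43 CPM in DR GR-KO. It rose by 2.27 (SE 0.52; edgeR adjusted p = 0.000278, quasi-likelihood 0.0327) over the 7 libraries, and the change over the 8 was 0.998 (edgeR adjusted p = 0.44).

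Nr4a3 in L5IT (2.65), Nr4a3 in L2/3 (1.38), Nr4a2 in L5IT (1.45) and Egr3 in L2/3 (0.68) also rose on the log2 scale without the library, and each was called by both edgeR tests. With all 8 libraries, the edgeR adjusted p of these 4 lay between 0.356 and 0.684. In the NR GR-KO male itself, Nr4a3 was 13.2 CPM in L2/3, 13.5 CPM in L4 and 15.6 CPM in L5IT. These values lay within or above the range of the 4 DR libraries.

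**Figure D4:**
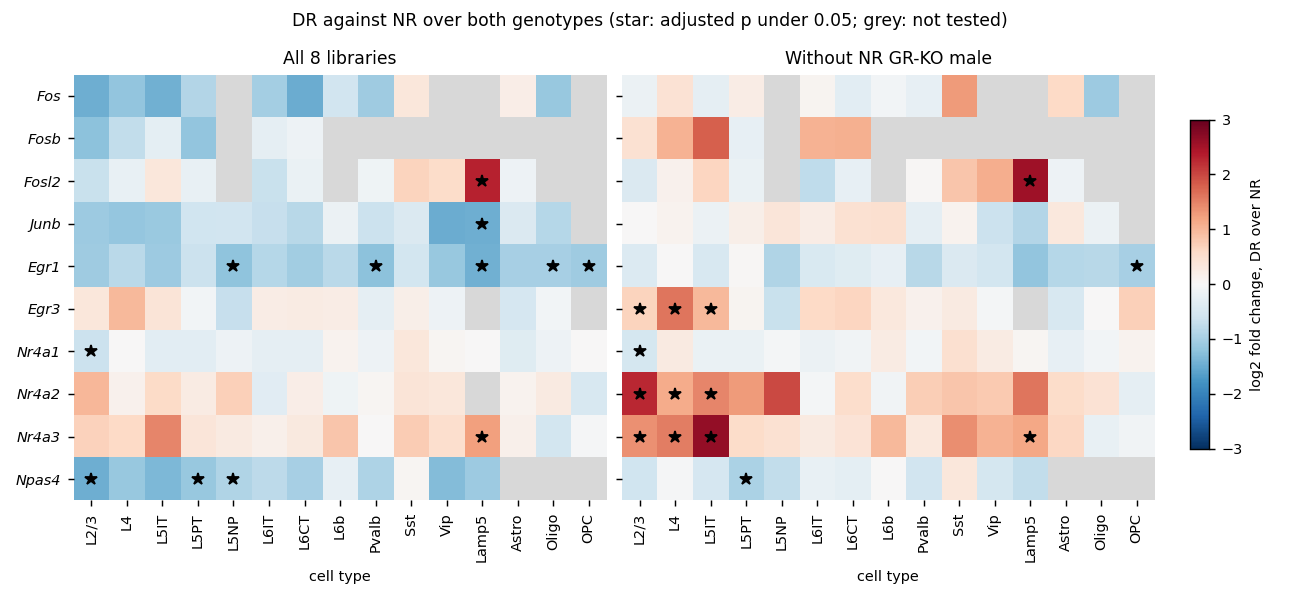
Log2 fold change of DR over NR across both genotypes for each gene (rows) and cell type (columns), with all 8 libraries and without the NR GR-KO male. Stars mark an adjusted p under 0.05 and grey marks pairs not tested; with the library left out, the Nr4a2, Nr4a3 and Egr3 rows are positive and starred in L2/3, L4 and L5IT.

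Of the 12 calls with all 8 libraries, 5 remained without that library by the likelihood ratio test and 0 by the quasi-likelihood test. Nr4a3 in Lamp5 interneurons was 14.8, 7.84, 9.69 and 8.80 CPM in the 4 NR libraries and 14.4, 24.3, 20.7 and 36.1 CPM in the 4 DR libraries. It rose by 1.24 on the log2 scale (SE 0.27; edgeR adjusted p = 0.000921), or by 1.15 without the library (edgeR adjusted p = 0.0142). Fosl2 in the same type was 0.560 to 2.15 CPM in NR and 1.52 to 11.5 CPM in DR, a log2 fold change of 2.31 (SE 0.46; edgeR adjusted p = 0.000252), with the DR GR-KO pair highest. The ranges of NR and DR overlapped for both genes in Lamp5.

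Npas4 in L5PT was 8.15 to 16.6 CPM in NR and 3.28 to 6.84 CPM in DR. The groups did not overlap, and the log2 fold change was -1.15 (SE 0.24; edgeR adjusted p = 0.000559, quasi-likelihood 0.0782) and -0.95 without the library (edgeR adjusted p = 0.0195). Nr4a1 in L2/3 was 44.8 to 62.4 CPM in NR and 25.5 to 41.3 CPM in DR, again with no overlap, and fell by 0.65 (SE 0.19; edgeR adjusted p = 0.00872) or by 0.53 without the library (edgeR adjusted p = 0.0396).

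Egr1 was lower outside excitatory neurons too. In OPC it was 19.3, 13.3, 28.9 and 21.2 CPM in NR and 5.35, 7.56, 10.4 and 15.9 CPM in DR, a log2 fold change of -1.07 (SE 0.23; edgeR adjusted p = 0.000723). Without the library it was -1.01 (edgeR adjusted p = 0.0211). The calls in L5NP (-1.22), Lamp5 (-1.43), Pvalb (-1.22) and oligodendrocytes (-0.99) were lost without the library, where the log2 fold changes were -0.91, -1.18, -0.82 and -0.83 and the edgeR adjusted p 0.0568, 0.17, 0.12 and 0.25. In OPC, 8 neuronal marker genes, none at 0, summed to 750 to 1154 CPM in NR and 687 to 832 CPM in DR, and over all types 13 of 118 pairs of such a marker were called lower in DR and 0 higher. One of them, Nrgn, fell in OPC by 0.84, in oligodendrocytes by 0.95 and in Lamp5 by 0.95 on the log2 scale. Glial RNA markers moved with rearing as well: of 110 pairs of such a marker and a type, 37 were called lower in DR and 1 higher (21 and 0 by the quasi-likelihood test), with all 8 markers counted in every library and a summed level in excitatory neurons of 90.01 to 156 CPM in NR and 84.8 to 140 CPM in DR. Such counts of marker pairs, here and below, run over neurons and glia and mix a cell's own RNA with RNA of other cells. The part of neuronal and glial RNA in the Egr1 result was not tested.

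When all excitatory and all inhibitory types were summed into 2 classes, 1 of 19 pairs was called higher and 1 lower. Together this was 10.5% of pairs, near the 9.58% of all genes and classes called in either direction. The called pairs were Nr4a3 in inhibitory neurons (log2 fold change 0.68, edgeR adjusted p = 0.0252) and Egr1 in inhibitory neurons (-0.96, edgeR adjusted p = 0.0478). The quasi-likelihood test called neither (adjusted p = 0.0909 and 0.12, with 7.63% of all called). Without the NR GR-KO female, 0 of 20 were higher and 9 lower, beside 1023 and 1345 of all 39718. In the fit without the NR GR-KO male, 5 were higher and 0 lower (9.73% of all). They were Nr4a3 in excitatory (0.85) and inhibitory neurons (0.85), Nr4a2 in both (0.81 and 0.86), and Egr3 in excitatory neurons (0.87). The quasi-likelihood test then called 3 of them (6.86% of all), which were Nr4a3 and Egr3 in excitatory and Nr4a2 in inhibitory neurons. In excitatory neurons Nr4a3 was 6.82 to 7.38 CPM in the 3 remaining NR libraries, 9.75 to 16.1 CPM in DR and 17.9 CPM in the NR GR-KO male. The groups overlapped with that library and did not overlap without it. The library was left out for its high values of the members, so the lack of overlap without it is no support of its own.

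The wider pathway was read from lists of genes around the members. Of 177 pairs of another inducible transcription regulator and a type, 0 were called higher and 12 lower in DR over both genotypes, and without the NR GR-KO male 3 were higher and 5 lower of 178. The quasi-likelihood test called 0 higher and 1 lower of the 177. Shares over all genes and types were 2.62% higher and 2.63% lower by the likelihood ratio test, or 2.90% and 2.48% without the library. By the quasi-likelihood test 3.30% were called in either direction. In GR-Con alone 2 of 158 were higher and 7 lower, beside 1.41% and 0.840% of all. The quasi-likelihood test called 1 in each direction there (0.495% of all in either direction). Bhlhe40, a clock-related repressor, rose in L2/3 by 1.26 (SE 0.23; edgeR adjusted p = 2.17e-06) in GR-Con, while Egr4, another EGR gene, fell there by 1.12 (SE 0.26; edgeR adjusted p = 0.000561). The median log2 fold change of the list was -0.09 in GR-Con, while the medians of all genes in a type lay between -0.00597 and 0.00286.

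Inducible effector genes, which encode synaptic and secreted proteins and follow neuronal activity, formed the next list. Of 161 pairs, 33 were called lower and 0 higher over both genotypes, with a median of -0.47, and without the library 23 of 162 were lower and 2 higher. The quasi-likelihood test with all 8 libraries called 18 lower and 0 higher. Shares of all genes were 2.62% higher and 2.63% lower, 2.90% and 2.48% without the library, and 3.30% in either direction by the quasi-likelihood test. In GR-Con 9 of 150 pairs were lower and 0 higher, beside 0.840% and 1.41% of all. The quasi-likelihood test called 5 lower there (0.495% of all in either direction). In L2/3 of GR-Con, Scg2, which encodes a secreted granin, fell by 1.31, Nptx2, a synaptic pentraxin, by 1.80 and Ptgs2, or COX-2, by 1.39. Vgf, a secreted neuropeptide precursor, fell by 1.43 in L5PT. For each of these 4 the edgeR adjusted p in GR-Con was at most 1.20e-06.

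The next lists stand beside the same shares of all genes, 2.62% higher and 2.63% lower, or 2.90% and 2.48% without the NR GR-KO male. By the quasi-likelihood test 3.30% of all were called in either direction. Upstream regulators, the kinases and factors that start transcription of the members, were called higher in 11 of 239 pairs and lower in 0, with a median of 0.07, by the quasi-likelihood test in 8 and 0, and without the NR GR-KO male in 8 and 2 of 240. Mapk3, which encodes the kinase ERK1, rose in L4 by 0.87 and in L2/3 by 0.79 over both genotypes. Partners and corepressors of the members were called higher in 3 and lower in 1 of 96 pairs, by the quasi-likelihood test in 1 and 2, and without that library in 7 and 1 of 97. With all 8 libraries these shares are near those of all genes. Heat shock genes were called lower in 2 of 42 pairs and higher in 0, by the quasi-likelihood test in 1 and 0, and without that library in 0 of 42 by the likelihood ratio test.

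In GR-KO, the rearing comparison rested on which NR library was counted. With both, 2 of 119 pairs were called higher in DR and 6 lower, against 1.69% and 1.96% of all genes and types. The share of pairs called higher, 1.68%, was near that of all genes. The quasi-likelihood test called 0 higher and 1 lower, which was 0.840% of pairs and near the 0.858% of all. With sex as a term 3 were higher and 12 lower, beside 6884 and 6974 of all 224158. Leaving out the NR GR-KO male gave 32 of 114 higher and 2 lower, against 3.25% and 2.90% of all, and 25 were called by the quasi-likelihood test (6.24% of all). Leaving out the NR GR-KO female instead gave 3 higher and 69 lower, against 1.68% and 2.51%. Each of these fits leaves a lone NR library, which is assumed to vary as the DR pair does. With both libraries, 33 of 135 pairs of a neuronal marker and a type were called lower in DR and 1 higher, and 36 of 121 pairs of a glial marker lower and 2 higher, and their part in the result was not tested.

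The 8 pairs called with both libraries had the same direction without the male, and 3 of them were then still called. The lower ones were Egr1 in L5NP and Pvalb, Junb in Vip, Nr4a1 in L2/3 and VLMC, and Nr4a3 in L5PT. Nr4a1 in VLMC fell by 1.70 with both and by 1.67 without the male (edgeR adjusted p = 0.00499 and 0.0455), from 20 to 65 nuclei and 3 to 32 UMIs per library. Nr4a3 in Lamp5 rose by 1.66 with both libraries and by 1.71 without the male (edgeR adjusted p = 0.000104 and 0.000363), and Fosl2 in Lamp5 rose by 2.66 and 3.71 (edgeR adjusted p = 0.000189 and 0.000296). Nr4a3 in L6b was 23.6 and 6.12 CPM in the NR GR-KO male and female and 42.0 and 49.7 CPM in the DR GR-KO pair. Both DR libraries were above both NR libraries, yet the change of 1.54 was not called with both (edgeR adjusted p = 0.15), and it was 2.87 without the male (edgeR adjusted p = 2.01e-10). The NR GR-KO female held 58 L6b nuclei. Junb in L6CT turned direction, from -1.54 with both (edgeR adjusted p = 0.43) to 1.42 without the male (edgeR adjusted p = 6.80e-09), since it was 100 CPM in the male and 6.87 CPM in the female, against 16.5 and 19.7 CPM in DR.

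Loss of the receptor in astrocytes was compared with its control within each rearing. In DR, 9 of 113 pairs were called higher in GR-KO and 0 lower, against 0.319% and 0.194% of all genes and types. None was called by the quasi-likelihood test, which called 0.00431% of all. It left 32 pairs at an unadjusted p under 0.05. The share of all genes at this limit is not given, so the count is not read as a result about the members. DESeq2 called 4, and one fit of all 8 libraries called 0 (0.347% of all in either direction). Without the DR GR-KO female 2 were higher and 0 lower (0.116% of all in either direction), and without the DR GR-KO male 3 and 0 (0.210%). Without the DR GR-Con female 14 were higher and 1 lower (2.05%), and without the DR GR-Con male 12 and 0 (3.23%). The pairs lay in L4, L5IT, L6IT, L6CT, L6b, Sst and, for Fosl2, Lamp5. Nr4a3 in L6b was 16.1 and 19.9 CPM in DR GR-Con and 42.0 and 49.7 CPM in DR GR-KO, with no overlap and a log2 fold change of 1.36 (SE 0.22; edgeR adjusted p = 4.17e-06, quasi-likelihood 0.12).

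In L6CT, 3 AP-1 genes were higher together. Fos was 0.529 and 0.963 CPM in DR GR-Con and 2.15 and 2.81 CPM in DR GR-KO, a log2 fold change of 1.74 (SE 0.40; edgeR adjusted p = 0.00472, quasi-likelihood 0.40). Fosb was 0.187 and 0.413 CPM against 1.17 and 1.20 CPM, a change of 1.96 (SE 0.45; edgeR adjusted p = 0.00466, quasi-likelihood 0.42), and Junb was 10.5 and 9.16 CPM against 16.5 and 19.7 CPM, a change of 0.89 (SE 0.21; edgeR adjusted p = 0.00927, quasi-likelihood 0.40). The groups of 2 libraries did not overlap for any of the 3. These pairs were picked by their calls, so this adds no support of its own. Each lost its call under the quasi-likelihood test.

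Egr3 in L4 was 10.8 and 9.67 CPM in DR GR-Con and 14.3 and 18.1 CPM in DR GR-KO (log2 fold change 0.70, SE 0.19; edgeR adjusted p = 0.0306, quasi-likelihood 0.25). The other named pairs were Fosb in L6IT (1.43), Fos in L5IT (1.59) and Nr4a3 in Sst interneurons (1.75), with edgeR adjusted p between 0.0312 and 0.0419 and quasi-likelihood values between 0.286 and 0.586. In the lists around the members, inducible effectors were higher in 8 of 147 pairs and lower in 1, among them Pcsk1 in L6b (0.98) and L6CT (1.06), which encodes a prohormone convertase, and Homer1 in L6b (0.88), which encodes a postsynaptic scaffold. Other inducible regulators were higher in 5 of 159 pairs and lower in 1. The quasi-likelihood test called 0 pairs of either list, and shares over all genes by the likelihood ratio test were 0.319% higher and 0.194% lower. Glial RNA markers were called higher in 9 of 109 pairs and lower in 0 (0 by the quasi-likelihood test), and their summed level in excitatory neurons was 84.8 and 107 CPM in DR GR-Con and 140 and 129 CPM in DR GR-KO. The part of this glial RNA in the result was not tested.

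In NR, 3 of 117 pairs were called higher in GR-KO and 0 lower, against 0.491% and 0.313% of all genes and types. The quasi-likelihood test called 0 (0.361% of all). It left 23 at an unadjusted p under 0.05. Without the share of all genes at this limit, the count is not read as a result about the members. With sex as a term 16 were higher and 0 lower (1.15% and 0.679%). Neuronal marker RNA moved with genotype here, with 12 of 130 pairs of such a marker and a type called higher and 0 lower. The types include neurons, where this RNA is their own, and its part was not tested. Without the NR GR-KO male, 3 were higher and 5 lower, against 0.713% and 0.520% of all, and without the NR GR-KO female 75 were higher and 0 lower (1.51% and 0.653%). In both fits the lone NR GR-KO library is assumed to vary as the NR GR-Con pair does. Npas4 in L5IT was 14.0 and 12.8 CPM in NR GR-Con, 34.8 CPM in the NR GR-KO male and 4.33 CPM in the NR GR-KO female. The mutant pair lay on both sides of the control pair, and the log2 fold change was 0.55 with both (edgeR adjusted p = 1) and -1.59 without the male.

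The 3 calls in NR concerned other types. Nr4a3 in L5PT was 4.76 and 6.49 CPM in NR GR-Con and 18.2 and 17.4 CPM in NR GR-KO, a log2 fold change of 1.66 (SE 0.22; edgeR adjusted p = 4.01e-10, quasi-likelihood 0.19). The female mutant value came from 59 nuclei, and without the male the change was 1.66 as well. In oligodendrocytes Fos was 0.689 and 0.196 CPM in NR GR-Con and 3.08 and 2.58 CPM in NR GR-KO (log2 fold change 2.47, SE 0.55; edgeR adjusted p = 0.00117, quasi-likelihood 0.18), and Nr4a1 was 2.89 and 4.12 CPM against 7.37 and 7.98 CPM (1.12, SE 0.29; edgeR adjusted p = 0.0126, quasi-likelihood 0.25). RNA of 8 neuronal marker genes in the same oligodendrocytes summed to 366 and 302 CPM in NR GR-Con and 546 and 648 CPM in NR GR-KO, with none of the 8 at 0, and its part in the result was not tested.

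Whether rearing acted differently in the 2 genotypes was tested as an interaction. With all 8 libraries, 0 of 126 pairs had a more positive rearing effect in GR-KO and 1 a more negative one, against 0.0423% and 0.139% of all genes and types. This pair was Nr4a3 in L5PT, at -2.19 on the log2 scale (SE 0.56; edgeR adjusted p = 0.0341), which the quasi-likelihood test did not call (adjusted p = 0.41). It was called in 3 of the 8 fits that leave out 1 library, namely those without the NR GR-KO male or either DR GR-Con library, and in the other 5 it lay between -1.97 and -2.44, with edgeR adjusted p from 0.0598 to 0.34. The quasi-likelihood test called 0 pairs (0.00276% of all). It left 12 at an unadjusted p under 0.05. Without the share of all genes at this limit, the count is not read as a result about the members. Nr4a3 in L5PT went from 4.76 and 6.49 CPM to 21.9 and 8.82 CPM with dark rearing in GR-Con, and from 18.2 and 17.4 CPM to 11.2 and 9.77 CPM in GR-KO. In the 7 libraries without the NR GR-KO male, 4 of 128 pairs were more positive and 1 more negative, against 0.210% and 0.243% of all, and without the NR GR-KO female 0 and 24 (0.174% and 0.450%).

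Members and other genes were last compared by how they varied over the libraries. Levels of each gene as log2(CPM + 1) in the 8 excitatory types were centred on each type, giving 64 points that share libraries and depth, so that Pearson's r serves as a description. The r was 0.87 for Junb and Egr1, 0.84 for Junb and Npas4, 0.71 for Nr4a2 and Nr4a3 and 0.26 for Nr4a3 and Npas4. Without the NR GR-KO male, over 56 points, these were 0.45, 0.47, 0.65 and -0.18. Over all genes with a mean of at least 5 CPM, the 10 members left out, the pattern most like Junb and Egr1 was that of Arc (0.93 and 0.88), which encodes a synaptic immediate early protein. Of these genes Npas4 was closest to Btg2 (0.86), Egr3 to Homer1 (0.82) and Nr4a3 to Gap43 (0.81). Over the 56 points without that library, Homer1 was still among the 3 genes closest to Egr3 (0.78). Arc was then no longer among the 3 closest to Junb or Egr1, Btg2 not among those of Npas4, and Gap43 not among those of Nr4a3.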

How the data were processed

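Single-nucleus RNA was measured in 8 libraries of V1, 1 male and 1 female in each of 4 groups. The authors aligned reads with Cell Ranger 8.0.1 to mm10 with the EGFP sequence added, removed nuclei with few genes, called doublets per sample and annotated cell types in Seurat 5.3.0. The deposited matrix holds raw UMI counts per gene and nucleus, and the deposited nucleus table gives library, cell type and the percent of mitochondrial UMIs computed by the authors, which entered no test. No further filter on nuclei was applied. Libraries were matched to groups by genotype, rearing and sex.

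Counts were summed per library and cell type, for types with at least 10 nuclei in every library of a fit. Each sum was tested across all genes with edgeR 4.0.16 in R 4.3.3 (filterByExpr, TMM, two-sided likelihood ratio test as in the study's methods, Benjamini-Hochberg adjustment within a type, adjusted p under 0.05). SEs were derived from the log2 fold change and its likelihood ratio statistic. Both tests were run on simulated counts with 200 genes changed 2-fold in 5 draws. In L2/3 of GR-Con, 22.1% of the calls of the likelihood ratio test were false and 11.5% of those of the quasi-likelihood F-test. In L2/3 over both genotypes these shares were 17.4% and 6.17%. In L5NP they were 9.88% and 9.45% in GR-Con, and 9.41% and 5.81% over both genotypes. Named pairs were, per comparison, up to 8 called pairs of smallest adjusted p, with and without the NR GR-KO male. The members and gene lists were chosen with earlier results of these data known. Alternatives were the quasi-likelihood test, DESeq2 1.42.0, its size factors, no filter, sex as a term, one fit of 8 libraries and leaving out each library. Leaving out the NR GR-KO male together with the quasi-likelihood test was added after seeing the data. Windows before gene starts came from RefSeq (GRCm38.p6) and gene positions from GENCODE. Counting error alone does not cover differences between animals.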

Additional observations from a re-analysis of the deposited data

Results flagged for a closer look

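Of 40 groups of 4 libraries that were checked for an extreme library, 8 held such a library. Chance gives about 1 in 20 for a single group. The 8 groups reuse the same 4 NR libraries for several genes, so they are not independent and cannot be set against that rate. The extreme library was the NR GR-KO male in all 8. In excitatory neurons of that library Fos was 17.8 CPM, Fosb 5.87 CPM, Junb 87.9 CPM, Nr4a2 10.9 CPM and Nr4a3 17.9 CPM. In its inhibitory neurons Fos was 6.03 CPM, Junb 19.2 CPM and Egr3 2.47 CPM. In each case the gap to the next library, as a share of the range of the 4, exceeded the critical value of Dixon's test. Its Cre, heat shock and glial RNA levels were high as well, and their part was not tested.

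The effect of dark rearing on Nr4a3 in L5PT differed between genotypes by the interaction term, at -2.19 on the log2 scale by the likelihood ratio test. The female NR GR-KO library held 59 L5PT nuclei, the quasi-likelihood test did not call this difference, and it was called in 3 of the 8 fits that leave out 1 library.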

How the results depend on the processing

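No paired analysis was possible because the table of nuclei identifies libraries by genotype, rearing and sex and carries no replicate number. Sex as a term served in its place.

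Counts of called pairs moved as follows. For DR against NR over both genotypes (12 called), DESeq2 called 5, the quasi-likelihood test 4, that test without the NR GR-KO male 7, and fits leaving out 1 library 5 to 37. In GR-Con (10 called), DESeq2 called 6, one fit of 8 libraries 3, the quasi-likelihood test 3, sex as a term 16, and leaving out 1 library 5 to 24. In GR-KO (8 called), DESeq2 called 1, one fit of 8 libraries 5, the quasi-likelihood test 1, that test without the NR GR-KO male 25, sex as a term 15, and leaving out 1 library 1 to 72. Between genotypes in DR (9 called), DESeq2 called 4, no filter 5, one fit of 8 libraries 0, the quasi-likelihood test 0, and leaving out 1 library 2 to 15. Between genotypes in NR (3 called), DESeq2 called 1, the quasi-likelihood test 0, sex as a term 16, and leaving out 1 library 2 to 75. For the interaction (1 called), DESeq2 and the quasi-likelihood test called 0, sex as a term 2, and leaving out 1 library 0 to 24. For the summed classes (2 called), DESeq2 called 1, the quasi-likelihood test 0, and leaving out 1 library 0 to 9. Calls over all genes and types moved too. In GR-Con they were 3000 higher and 1784 lower of 212346 by the likelihood ratio test. DESeq2 gave 2054 and 1152 there, and sex as a term 3877 and 2493. In GR-KO these were 3792 and 4403 of 224158, 3383 and 2281, and 6884 and 6974. Between genotypes, DESeq2 called 539 and 238 of 208905 in DR and 561 and 413 of 225061 in NR. The cause was not tested.

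Some named log2 fold changes turned direction when 1 library was left out, and are given from their lowest to their highest value over those fits. In the rearing comparison of GR-KO these were Egr3 in L4 (-0.0425 to 2.12), Junb in L4 (-2.78 to 1.05), Nr4a2 in L4 (-1.30 to 1.80), Nr4a3 in L4 (-1.06 to 1.66), Junb in L6CT (-2.45 to 1.42), Nr4a2 in L6CT (-0.18 to 1.47) and Fosb in L6IT (-1.45 to 3.05). Over both genotypes it was Nr4a2 in excitatory neurons (-0.15 to 0.81). Between genotypes in NR they were Npas4 in L2/3 (-1.002 to 1.83), Junb in L5IT (-1.15 to 2.06), Npas4 in L5IT (-1.59 to 1.37), Fos in L6IT (-1.29 to 2.35) and Fosl2 in Vip (-3.51 to 0.63), and for the interaction Fos in L5IT (-1.13 to 2.97) and Fosb in L6IT (-1.49 to 3.02). The ends of each range came from the fits without the male and without the female NR GR-KO library, except for the low end of Nr4a2 in excitatory neurons (without the DR GR-Con male). With sex as a term, Nr4a2 in L4 (0.23), Nr4a3 in L4 (0.29) and Fosb in L6IT (0.45) turned for rearing in GR-KO, Npas4 in L5IT (-0.0503) between genotypes in NR, and Fos in L5IT (0.10) for the interaction. Scaling by DESeq2 size factors turned none and moved the median of all genes by between -0.0147 and 0.0124.

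With 2 mice per group, 1 of each sex, sex and animal cannot be told apart within a group. Depth limits Fosb, Fos and Fosl2, whose levels were near 1 CPM or below in several cell types. Excitatory types are among them. Without the NR GR-KO male, Fosb had a mean of 0.535 CPM in L6CT and 0.125 CPM in L5NP, and Fos in L6CT was 0.529 CPM in its lowest library.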
